A study of Mus musculus with 16 samples.

Results

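The 31 genes described here encode enzymes and transporters of glycolysis (18 genes) and proteins of the cellular response to low oxygen (13 genes). They were listed by name for their place in these pathways, with earlier results of these data known. All 31 had a row among the 24469 gene symbols measured. In glycolysis, glucose enters the cell through facilitative transporters, is trapped by hexokinase, is split and oxidized to pyruvate, and in many activated or oxygen-poor cells is turned into lactate and exported. The response to low oxygen is driven by the transcription factor encoded by Hif1a, whose protein is hydroxylated by oxygen-dependent prolyl hydroxylases and degraded when oxygen is plentiful, so that its activity is set largely after transcription and is not read from its RNA. Most of the genes listed are known targets of this factor, and both effector T cells and tumor macrophages are known for a high use of glucose.

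The genes were followed in single-cell RNA libraries from mice that carried MC38 tumors, a colon tumor line of C57BL/6 origin, and that either had or lacked Aire, a regulator of self-antigen expression in the thymus. Littermates of 8 weeks, *Aire*+/+ or *Aire*-/- on the C57BL/6 background, received 5 mg/kg of anti-PD1 or of an isotype control antibody on day 0, then on days 3 and 7 and again on days 10 and 14, and tumors and spleens were taken on day 19 after implantation. Tumors of 4 to 6 mice were pooled for each of the 4 conditions (each genotype under each antibody), spleens were pooled likewise, and CD45+ cells and CD8+ T cells were sorted. Each condition, tissue and sort gave 1 library, which makes 16 libraries with no replicate within a condition, and both sorts of a tissue and condition probably came from the same pool of mice.

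Where 4 values follow each other below, the first pair belongs to *Aire*+/+ mice and the second pair to *Aire*-/- mice, and within each pair isotype comes before anti-PD1. The libraries of CD45+ tumor cells held 38930017, 28760714, 24639370 and 23282799 transcript molecules counted by unique molecular identifiers (UMIs), and those of CD8+ tumor cells held 35163274, 27052444, 22414023 and 23271160. Spleens gave shallower libraries, 12131827, 10927391, 11179227 and 12618095 UMIs for the CD45 sort and 20126140, 19167788, 15590029 and 16279427 for the CD8 sort. A median cell held 9889 to 12251.5 UMIs in the CD45+ tumor libraries and 4413.5 to 4733 in the CD45+ splenic libraries. Pairs of libraries shared between 2 and 18 cell barcodes, at most 0.840% of the smaller library.

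Cells were assigned to types by UMIs of marker genes, and the UMIs of all cells of a type were summed in each library, so that a level below, in CPM, is the UMIs of a gene over all UMIs of that cell type in that library, scaled to a common total. The CD8+ T cell gate held 2466, 2078, 1744 and 2081 tumor cells and 2732, 2793, 2228 and 2479 splenic cells of the CD8 sort. In the CD45 sort it held 126, 201, 195 and 677 tumor and 137, 150, 143 and 185 splenic cells. NK cells numbered 97, 129, 145 and 242 in tumors and 81, 47, 56 and 53 in spleens, and monocytes 795, 530, 481 and 382 in tumors and 152, 106, 101 and 59 in spleens. Macrophages numbered 1054, 711, 508 and 203 in tumors but 11, 4, 5 and 2 in spleens, so they had no comparison of tissues. Genes used in a gate are fixed by it and say nothing about its purity. Nkg7, a gene of cytotoxic lymphocytes that no gate used, stood at 2141 to 4923 CPM in NK cells, 2759.9 to 3572 in tumor and 726 to 842 in splenic CD8+ T cells of the CD45 sort, and 0 to 40.5 in monocytes.

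The comparison of tumor with spleen asks how these genes differ between CD8+ T cells inside the tumor and those of a lymphoid organ, with each condition contributing 1 tumor and 1 splenic library as a pair. The cells of the tissues also differed in genes of activation. In CD8+ T cells of the CD8 sort Cd69 stood at 460.2 to 634 CPM in tumor and 97.5 to 109.6 in spleen, and Gzmb at 3479.6 to 4315 and 12.2 to 81.4. Tissue and activation state are therefore not separated in this comparison, nor in NK cells, where Gzmb stood at 4289 to 7118 in tumor and 628 to 938 in spleen. In the CD8 sort all 31 genes passed the filter on low counts (a mean of 5 UMIs per library), although Adm and Vegfa passed through their tumor libraries alone and so had to differ. With an edgeR quasi-likelihood test and a Benjamini-Hochberg adjusted p under 0.05 over the 11978 genes tested, 30 of the 31 were higher in tumor CD8+ T cells, where 37.3% of all genes tested were higher, and 1 was lower, where 38.6% of all genes were lower. Their median log2 fold change was 2.28, against -0.02 for all genes tested, with 2.21 for the glycolysis genes and 2.41 for the hypoxia genes. DESeq2 gave the same numbers, 30 and 1. Among genes whose mean passed the filter in each tissue alone, a count added after the values were seen, 28 of the 29 described here were higher and 1 lower, against 3833 higher and 4432 lower of all 11027 such genes, with a median of 2.23 for those described, so that these genes lay on the higher side far more often than all genes did. Summed over the glycolysis genes, tumor CD8+ T cells held 16579.5, 14314, 14439 and 12686 CPM and splenic CD8+ T cells 3195, 2841, 2932 and 3352. The sum of the hypoxia genes was 1312, 1344, 1442 and 1246 in tumor and 329.6, 359, 321 and 326 in spleen, and for both sums every tumor library stood above every splenic library.

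Glucose enters T cells mainly through the transporters encoded by Slc2a1 and Slc2a3. Slc2a1 stood at 116, 122, 112 and 98.6 CPM in tumor CD8+ T cells and 21.9, 20.9, 19.8 and 24.3 in splenic CD8+ T cells. Slc2a3 stood at 121, 104, 108 and 93.4 in tumor and 15.5, 14.1, 20.1 and 20.1 in spleen. For both transporters the lowest tumor library was more than the highest splenic library, and the 4 libraries of a tissue lay close together. Slc2a1 rose by a log2 fold change of 2.28 ± 0.08 (SE, adjusted p 2.5e-07, higher in 4 of 4 conditions) and Slc2a3 by 2.54 ± 0.12 (adjusted p 7.6e-07, 4 of 4). Among the enzymes of upper glycolysis, Hk2 encodes the hexokinase that phosphorylates glucose, and its level was 35.9, 38.3, 32.6 and 40.3 in tumor against 3.52, 3.01, 1.36 and 2.57 in spleen. Pfkp, the platelet form of phosphofructokinase, stood at 203, 203, 179.9 and 165 in tumor and 56.1, 48.8, 67.0 and 59.7 in spleen. Tpi1, the isomerase that interconverts the products of aldolase, stood at 784, 647, 660.3 and 537 in tumor and 46.3, 43.6, 44.6 and 45.8 in spleen. None of these 3 enzymes had a tumor library at or under a splenic one, and Tpi1 was lowest in the tumor library of *Aire*-/- mice given anti-PD1. The log2 fold change was 3.71 ± 0.16 for Hk2 (adjusted p 5.2e-07), 1.62 ± 0.10 for Pfkp (adjusted p 2.8e-06) and 3.77 ± 0.09 for Tpi1 (adjusted p 3.5e-08), each higher in 4 of 4 conditions. The other upper glycolysis genes, Hk1, Gpi1, Pfkl, Pfkfb3 and Aldoa, rose by 0.99 (Hk1) to 2.40 (Aldoa).

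In lower glycolysis, Pgk1 encodes the kinase of the first step that yields ATP, and it stood at 1103, 879, 926 and 769 CPM in tumor CD8+ T cells against 157, 143, 144 and 164 in spleen. Its tumor libraries all lay above the splenic ones, with a log2 fold change of 2.50 ± 0.09 (adjusted p 2.7e-07, higher in 4 of 4 conditions). Gapdh, Pgam1, Eno1 and Pkm rose by 2.04 (Eno1) to 2.44 (Gapdh), and Eno1 is uncertain because a near-identical copy of it, Eno1b, can take some of its reads. Ldha encodes the lactate dehydrogenase subunit that favors lactate, and it stood at 2119, 1784, 1918 and 1726 in tumor and 497, 425, 453 and 506 in spleen. Slc16a3, an exporter of lactate, stood at 90.8, 77.5, 85.5 and 62.5 in tumor and at 0.487, 0.446, 0.680 and 1.12 in spleen. The exporter was thus close to the floor in splenic cells, with 9, 8, 10 and 17 UMIs in the 4 splenic libraries, and both genes were separate between tissues in every condition. The log2 fold change was 1.92 ± 0.07 for Ldha (adjusted p 2.1e-07) and 6.79 ± 0.18 for Slc16a3 (adjusted p 7.0e-08), both higher in 4 of 4 conditions. The gene that went the other way was Pdk1, named here after its values were seen, whose kinase inhibits pyruvate dehydrogenase. Pdk1 stood at 30.5, 22.0, 24.3 and 20.5 in tumor and 78.2, 89.0, 65.5 and 65.9 in spleen. Every splenic library was thus more than the highest tumor library, and Pdk1 fell by 1.70 on the log2 scale (SE 0.12, adjusted p 5.4e-06, lower in 4 of 4 conditions).

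Hif1a, the oxygen-regulated subunit of the factor itself, stood at 357, 483, 547 and 463 CPM in tumor CD8+ T cells and 47.7, 44.9, 51.5 and 55.0 in spleen, a log2 fold change of 3.12 ± 0.10 (adjusted p 1.2e-07, higher in 4 of 4 conditions). The tumor library of *Aire*+/+ mice given isotype was the lowest of the 4 tumor libraries, and still far from the splenic range. Of the prolyl hydroxylases that mark this factor for degradation, Egln1 rose by 0.97 and Egln3 by 2.41. Among the hypoxia-response genes, Bnip3, which encodes a mitophagy receptor, stood at 149.7, 117, 141 and 118 in tumor and 5.30, 5.19, 5.37 and 5.87 in spleen. Ndrg1, a stress-response gene, stood at 60.7, 52.5, 52.9 and 35.6 in tumor and 4.60, 4.97, 4.21 and 5.01 in spleen. Ddit4, which encodes an inhibitor of mTORC1 signaling, stood at 179, 185, 176 and 139.9 in tumor and 110.3, 157, 74.9 and 76.4 in spleen. Bnip3 and Ndrg1 were separate between tissues in all 4 conditions, whereas the Ddit4 level of the splenic library of *Aire*+/+ mice given anti-PD1 lay above the lowest tumor library. Bnip3 rose by 4.51 ± 0.09 (adjusted p 2.5e-08, 4 of 4), Ndrg1 by 3.32 ± 0.13 (adjusted p 3.6e-07, 4 of 4) and Ddit4 by 0.67 ± 0.15 (adjusted p 0.0037, 4 of 4). Vegfa, the vascular growth factor, had 130, 57, 46 and 36 UMIs in the tumor libraries against 1, 0, 1 and 0 in the splenic ones, a ratio of 90.0 (95% counting interval 24.7 to 747) over the groups after scaling by library size. Adm, which encodes a vasodilator peptide, had 27, 34, 13 and 3 UMIs in tumor and 0 in all 4 splenic libraries, which puts it at least 17.2-fold higher in tumor against a floor of 3 counts over the splenic group. Intervals and floors here and below cover counting error only. A floor takes the tumor UMIs as exact, so the lower 95% counting limit of the ratio lies under the stated fold (13.6 for Adm). With Adm placed at that bound, the median over the 31 genes stayed at 2.28. Ero1l, P4ha1, Ankrd37, Mxi1 and Higd1a rose by 1.05 (P4ha1) to 2.42 (Ankrd37).

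**Figure D1:**
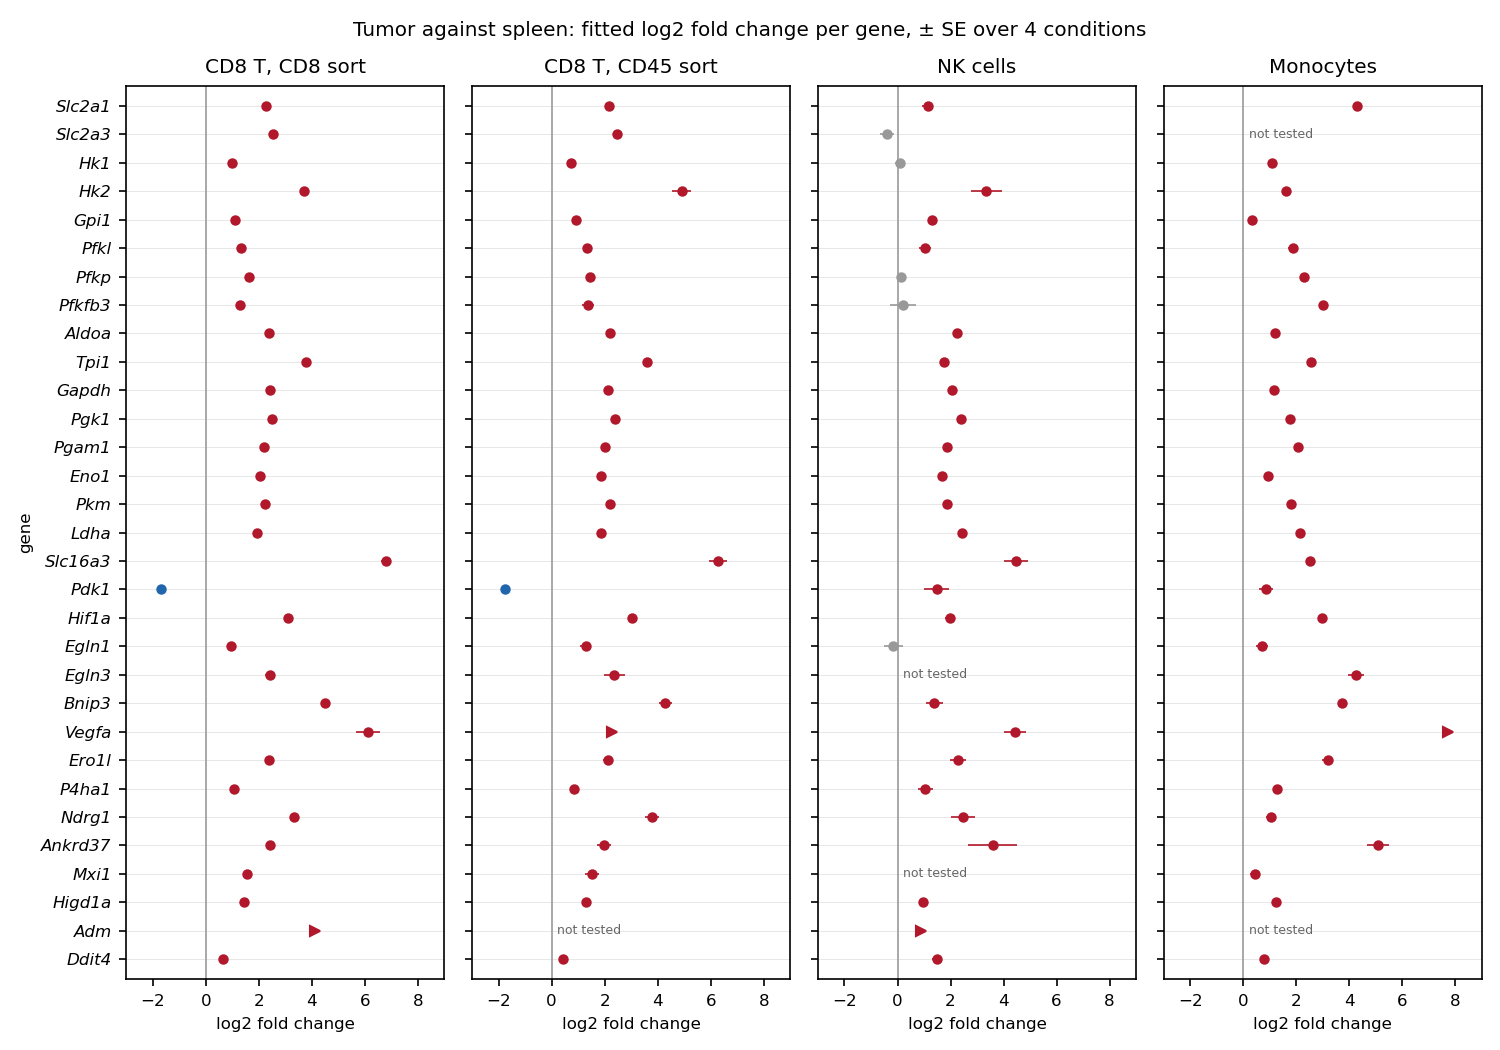
Log2 fold change (tumor over spleen, x axis) with its SE for each gene (y axis, by role) in CD8+ T cells of both sorts, NK cells and monocytes, over 4 conditions in each panel. Red points were higher, blue lower and grey neither at an adjusted p under 0.05, and triangles are lower bounds for genes with 0 UMIs in every splenic library. Genes that passed the filter through tumor libraries alone carry the same marks, although the filter favored a higher value for them. Pdk1 was lower in tumor CD8+ T cells of both sorts.

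In CD8+ T cells of the CD45 sort, which probably shares its pools of mice with the CD8 sort and is no independent repeat of it, 30 of the 31 genes passed the filter and Adm did not. Hk2, Slc16a3, Egln3, Bnip3, Vegfa and Ndrg1 passed through their tumor libraries alone, so that the filter favored a higher value in tumor for them. Of the 30, 29 were higher in tumor, where 27.0% of the 9807 genes tested were higher, and 1 was lower, where 24.7% were lower. DESeq2 called 28 higher and 1 lower. Among genes that passed the filter in each tissue alone, 23 of the 24 described here were higher and 1 lower, against 1878 higher and 2366 lower of all 8329 such genes, with a median of 1.86 for those described. The median log2 fold change was 2.07, against -0.02 over all genes tested. Slc2a1 stood at 129, 84.4, 102 and 79.9 CPM in tumor and 21.3, 22.5, 21.7 and 17.2 in spleen. Hif1a stood at 323, 451, 499 and 461 in tumor and 40.3, 44.0, 52.7 and 63.6 in spleen. Pdk1 stood at 29.6, 22.3, 22.5 and 19.4 in tumor and 75.1, 79.4, 67.2 and 71.4 in spleen. The tissues did not overlap for any of these 3 genes, with Pdk1 again on the lower side in tumor. Log2 fold changes were 2.16 ± 0.15 for Slc2a1 (adjusted p 3.1e-11, higher in 4 of 4 conditions), 3.03 ± 0.11 for Hif1a (adjusted p 2.4e-16, higher in 4 of 4) and -1.76 ± 0.14 for Pdk1 (adjusted p 3.4e-10, lower in 4 of 4).

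The same sort gave Hk2 levels of 49.1, 35.9, 40.7 and 40.3 CPM in tumor and 2.24, 1.07, 2.07 and 0 in spleen, and Ldha levels of 2066, 1538, 1844 and 1489.6 and 474, 432, 481 and 419. Bnip3 stood at 108, 72.2, 109 and 90.7 in tumor and 7.84, 5.36, 5.17 and 0.860 in spleen. Pfkp stood at 179.9, 162, 184 and 174 in tumor and 66.1, 61.1, 64.1 and 55.9 in spleen. All 4 genes were separate between tissues, and splenic Hk2 rested on 2, 1, 2 and 0 UMIs. The log2 fold change was 1.86 ± 0.08 for Ldha (adjusted p 4.2e-15) and 1.44 ± 0.11 for Pfkp (adjusted p 9.4e-11), both higher in 4 of 4 conditions. In the comparisons of tissues, here and below, genes that passed the filter through tumor libraries alone have a ratio in place of the test. This is the ratio of UMIs over the groups, scaled by library size, with its 95% counting interval. It was 32.1 (13.7 to 99.3) for Hk2 and 20.4 (12.9 to 34.6) for Bnip3. The other genes among the 10 with the largest log2 fold changes were Tpi1 (719.6, 517, 642 and 452 in tumor against 42.6, 53.6, 46.5 and 37.0 in spleen, log2 fold change 3.61) and Ndrg1 (58.5, 43.6, 51.9 and 28.6 against 5.60, 1.07, 3.10 and 2.58, ratio 12.7 (7.20 to 24.7)). They also included Slc2a3 (68.6, 88.2, 85.3 and 96.8 against 14.6, 10.7, 16.5 and 16.3, 2.47), Pgk1 (1082, 643, 868 and 651 against 142, 137, 151 and 149, 2.37) and Egln3 (23.1, 7.27, 17.3 and 14.4 against 3.36, 4.29, 2.07 and 1.72, ratio 5.29 (2.89 to 10.8)). Tissues were separate for all 5, and the splenic libraries held 2 to 4 UMIs of Egln3 and 1 to 5 of Ndrg1. Slc16a3 had 811 UMIs over the tumor libraries and 3 over the splenic ones, a ratio of 83.7 (95% counting interval 28.5 to 406). Vegfa had 47 UMIs in tumor and 0 in spleen, which is at least 4.85-fold higher in tumor, although DESeq2 did not call it. Ddit4 stood at 169.8, 198, 144 and 130.3 in tumor and 129, 161, 87.9 and 85.1 in spleen, so that tissues overlapped, and rose by 0.42 ± 0.10 (adjusted p 0.0013, 4 of 4 conditions). This call was not kept without the pairing by condition (0.40), without cycling cells (0.02), without the top 5% of cells by UMIs (0.26) or with every cell thinned to 2000 UMIs (-0.13).

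NK cells are innate lymphocytes of both tissues, and in them 29 of the 31 genes passed the filter, without Egln3 and Mxi1. Of these, Hk2, Pfkfb3, Slc16a3, Pdk1, Bnip3, Vegfa, Ero1l, Ndrg1, Ankrd37 and Adm passed through their tumor libraries alone, because the splenic sums of NK cells were small, so that the filter favored a higher value in tumor for these 10. The edgeR test called 24 higher in tumor NK cells, where 20.3% of the 8863 genes tested were higher, and 0 lower, where 14.7% of all genes were lower. At an unadjusted p under 0.05 the numbers were also 24 and 0, and DESeq2 gave 22 and 0. Among genes that passed the filter in each tissue alone, 15 of the 19 described here were higher and 0 lower, against 1227 higher and 1216 lower of all 6095 such genes, with a median of 1.48 for those described. The genes that passed in neither direction were Slc2a3, Hk1, Pfkp, Pfkfb3 and Egln1. The median log2 fold change was 1.76, against 0.01 over all genes tested, and 1.69 with Adm placed at its bound. In NK cells the choice of scaling moved the median of all genes: with edgeR's TMM factors it lay 0.41 (log2) above its value under library size alone, where 1034 genes were called higher and 2892 lower and where 1 of the 31 genes was called lower and 22 higher. Levels in CPM are on library size alone, so they differ from the fitted log2 fold changes by about this shift.

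Slc2a1 stood at 95.6, 71.8, 81.9 and 93.8 CPM in tumor NK cells and 64.8, 33.4, 65.6 and 38.4 in splenic NK cells. Hk2 stood at 25.8, 20.5, 18.0 and 26.6 in tumor and 3.08, 9.55, 0 and 0 in spleen. Pfkp stood at 118, 102, 122 and 114 in tumor and 154, 158, 121 and 119 in spleen. The tumor libraries lay above the splenic ones for the transporter and the hexokinase, but for the phosphofructokinase the ranges overlapped, with 3 of 4 conditions higher in spleen on this scale. Slc2a1 rose by 1.13 ± 0.20 (adjusted p 1.0e-04, 4 of 4 conditions), and Pfkp did not pass the test (0.14 ± 0.16, adjusted p 0.53). The splenic Hk2 value rested on 3 UMIs, a ratio of 8.20 (95% counting interval 2.77 to 40.1). Aldoa, the aldolase, stood at 1499, 1139, 1251 and 1198 in tumor and 382, 349, 338 and 332 in spleen. Pgk1 stood at 749.6, 559.8, 526 and 472 in tumor and 95.6, 191, 169 and 132 in spleen. Ldha stood at 1824, 1504, 1431 and 1536 in tumor and 361, 416, 401 and 367 in spleen. These 3 enzymes did not overlap between tissues and rose by 2.26 ± 0.10 (Aldoa, adjusted p 1.0e-14), 2.40 ± 0.17 (Pgk1, adjusted p 2.6e-11) and 2.43 ± 0.11 (Ldha, adjusted p 5.5e-15), each in 4 of 4 conditions. Slc16a3 had 400 UMIs in tumor and 3 in spleen, a ratio of 17.0 (95% counting interval 5.78 to 82.8).

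Hif1a in NK cells stood at 132, 147, 209 and 206 CPM in tumor and 43.2, 52.6, 65.6 and 72.5 in spleen. Bnip3 stood at 35.6, 27.3, 48.1 and 28.7 in tumor and 21.6, 9.55, 13.8 and 25.6 in spleen. Vegfa stood at 57.9, 92.8, 85.7 and 86.4 in tumor and 12.3, 4.78, 0 and 0 in spleen. Tumor libraries were above splenic libraries throughout, with the smallest separation for Bnip3, and splenic Vegfa rested on 4, 1, 0 and 0 UMIs. The rise was 1.98 ± 0.17 for Hif1a (adjusted p 1.4e-09, 4 of 4 conditions), while the ratio of UMIs was 1.89 (1.19 to 3.18) for Bnip3 and 17.5 (7.46 to 54.1) for Vegfa. Ero1l, an oxidase of the endoplasmic reticulum, stood at 76.1, 56.4, 49.2 and 68.7 in tumor and 9.25, 9.55, 27.6 and 21.3 in spleen. Ndrg1 stood at 37.0, 42.1, 36.0 and 30.8 in tumor and 0, 23.9, 13.8 and 0 in spleen. Ddit4 stood at 228, 241, 150.2 and 238 in tumor and 114, 143, 89.8 and 55.4 in spleen. All 3 had their 4 tumor libraries above their 4 splenic libraries, and splenic Ndrg1 rested on 0, 5, 4 and 0 UMIs. The ratio of UMIs was 3.71 (2.32 to 6.30) for Ero1l and 4.17 (2.16 to 9.20) for Ndrg1, and Ddit4 rose by 1.48 ± 0.18 (adjusted p 3.2e-07, 4 of 4). Ankrd37, a hypoxia-induced ankyrin repeat gene, had 78 UMIs in tumor and 1 in spleen, a ratio of 9.95 (95% counting interval 1.73 to 398). Adm had 1, 0, 10 and 32 UMIs in tumor and 0 in spleen, at least 1.83-fold higher against the floor (lower 95% counting limit 1.42). Its call (2 of 4 conditions higher with 0.5 UMI added to each library) was lost without *Aire*-/- isotype, without *Aire*+/+ anti-PD1 and by DESeq2.

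Monocytes are the circulating precursors from which many tumor macrophages derive. In them 29 of the 31 genes passed the filter, without Slc2a3 and Adm, and with Egln3, Vegfa and Ankrd37 through their tumor libraries alone. All 29 were higher in tumor, where 26.1% of the 9941 genes tested were higher, with 0 lower, where 22.6% were lower. At an unadjusted p under 0.05 the numbers by edgeR were 29 and 0, and DESeq2 gave 26 and 0. Among genes that passed the filter in each tissue alone, 26 of the 26 described here were higher and 0 lower, against 1982 higher and 2154 lower of all 8126 such genes, with a median of 1.67 for those described. Cd69, which no gate used, stood at 173 to 207 CPM in tumor and 0 to 12.0 in splenic monocytes. Tissue and cell state are therefore not separated in monocytes either. The median log2 fold change was 1.79 (1.79 with Vegfa at its bound), against -0.02 for all genes tested. Here TMM lay 0.36 above library size alone in the median of all genes, and library size alone called 1677 genes higher and 4190 lower, with 25 of the 31 higher and 0 lower. Slc2a1 stood at 274, 272, 260.0 and 196 CPM in tumor monocytes and 20.4, 12.0, 16.5 and 17.1 in splenic monocytes. Hk2 stood at 207, 219, 264 and 298 in tumor and 101, 87.4, 110.1 and 119.7 in spleen. Pfkp stood at 136, 142, 204 and 166 in tumor and 43.9, 38.3, 46.8 and 31.8 in spleen. No tumor library of these 3 genes reached down to a splenic one, and splenic monocytes already held Hk2 at a level that splenic CD8+ T cells and NK cells did not. Slc2a1 rose by 4.30 ± 0.16 (adjusted p 6.4e-16), Hk2 by 1.59 ± 0.11 (adjusted p 6.8e-11) and Pfkp by 2.30 ± 0.14 (adjusted p 4.9e-12), each in 4 of 4 conditions.

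Pfkfb3, whose enzyme makes the allosteric activator of phosphofructokinase, stood at 103, 106, 113 and 98.0 CPM in tumor monocytes and 13.6, 20.4, 19.0 and 14.7 in spleen. Tpi1 stood at 744, 729.9, 588 and 389.8 in tumor and 149, 133, 125 and 142 in spleen. Ldha stood at 1283, 1139, 1019 and 754 in tumor and 337, 289.8, 309 and 288 in spleen. For Tpi1 and Ldha the tumor library of *Aire*-/- mice given anti-PD1 was the lowest of the 4, and no gene of the 3 overlapped between tissues. They rose by 3.01 ± 0.16 (Pfkfb3, adjusted p 4.5e-13), 2.54 ± 0.13 (Tpi1, adjusted p 1.1e-13) and 2.14 ± 0.11 (Ldha, adjusted p 7.5e-14), each in 4 of 4 conditions. Slc16a3 stood at 383, 335, 339 and 262 in tumor and 72.6, 75.4, 74.7 and 88.0 in spleen, with no overlap, and rose by 2.50 ± 0.13 (adjusted p 1.4e-13, 4 of 4). Hif1a stood at 291, 333, 401 and 453 in tumor and 54.5, 50.3, 64.6 and 68.4 in spleen. Egln3 stood at 52.4, 39.5, 26.4 and 24.8 in tumor and 4.54, 2.39, 1.27 and 0 in spleen. Both were far apart between tissues, and across the tumor libraries their order was opposite, Hif1a from low to high and Egln3 from high to low in the order given. Hif1a rose by 2.98 ± 0.12 (adjusted p 4.1e-15, 4 of 4), and the ratio of UMIs was 14.5 (7.60 to 31.8) for Egln3, with 6, 2, 1 and 0 UMIs in spleen.

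The widest separation in monocytes belonged to Vegfa, with 1450, 1366, 1014 and 1005 UMIs (154, 212, 171 and 242 CPM) in tumor and 0 in every splenic library, at least 208.6-fold higher in tumor. Bnip3 stood at 268, 261, 199.6 and 157 CPM in tumor and 23.4, 22.8, 25.3 and 14.7 in spleen. Ero1l stood at 137, 123, 88.9 and 63.8 in tumor and 14.4, 10.8, 24.1 and 12.2 in spleen. Tumor values of Bnip3 and Ero1l were lower in both *Aire*-/- libraries than in both *Aire*+/+ libraries, and all stayed above the splenic range. Bnip3 rose by 3.73 ± 0.15 (adjusted p 2.3e-15, 4 of 4 conditions) and Ero1l by 3.18 ± 0.20 (adjusted p 6.4e-12, 4 of 4). Ankrd37 stood at 47.7, 45.2, 32.7 and 26.7 in tumor and 0, 2.39, 0 and 7.33 in spleen, on 0, 2, 0 and 3 UMIs, a ratio of 27.0 (11.6 to 83.5). Ddit4 stood at 198, 200.1, 119.7 and 62.4 in tumor and 88.5, 181, 91.2 and 88.0 in spleen. Its tissues overlapped, with the tumor library of *Aire*-/- mice given anti-PD1 under every splenic library. It rose by 0.78 ± 0.16 (adjusted p 3.5e-04, 3 of 4 conditions), by 0.48 without *Aire*+/+ isotype, and was not called without the pairing by condition (0.73) or with cells thinned to 2000 UMIs (0.26). The genes with the smallest fitted rises were Gpi1 (0.31), the phosphoglucose isomerase, Mxi1 (0.43), a repressor of the Myc network, and Egln1 (0.70), and Pdk1 rose by 0.85, higher in 2 of 4 conditions on library size. Egln1 and Gpi1 were also higher in 2 of 4 conditions there, and the sign of Gpi1 turned on the scaling, with -0.06 and no call under library size alone.

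Whether the tissue difference itself differed between cell types was tested within the CD45 sort, with the library as a block. The interaction subtracts the tissue difference of CD8+ T cells from that of the other cell type, so a positive value means that the tumor level, relative to spleen, was further up in monocytes or NK cells than in CD8+ T cells. For monocytes 30 genes could be tested, without Adm, and the edgeR interaction was higher for 6, where 14.7% of the 10428 genes tested were higher, and lower for 11, where 11% were lower, with a median of -0.02 against 0.03 over all genes. Of these calls, Hk2, Slc16a3 and Ndrg1 (lower) in CD8+ T cells and Ankrd37 (higher) in monocytes passed the filter through tumor libraries alone. The filter favored these calls, so the counts are not read against the shares of all genes. DESeq2 called 5 higher and 11 lower. For NK cells, also with 30 genes, it was higher for 3, where 10.1% of 9550 genes were higher, and lower for 9, where 10.4% were lower, with a median of -0.51 against -0.03 over all genes. DESeq2 called 3 higher and 7 lower. Of the edgeR calls, Pdk1 (higher) in NK cells and Bnip3 (lower) in both cell types passed the filter through tumor libraries alone. Scaling matters most here, since TMM moved the median of all genes by 0.50 in the monocyte and by 0.47 in the NK interaction. Under library size alone, 753 genes were higher and 3002 lower in the former, with 5 and 14 of the genes described, and 501 were higher and 2701 lower in the latter, with 2 and 17. The NK and monocyte interactions share the splenic and tumor CD8+ T cells and are not independent of each other.

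Pdk1 had a positive interaction in monocytes, 2.59 ± 0.28 (adjusted p 1.3e-06, 4 of 4 conditions). In NK cells its fitted value was 3.13 ± 0.41 (4 of 4). This value is given without the test, although it is among the calls counted above, because Pdk1 passed the filter in NK cells through tumor libraries alone. Its level was 26.5, 14.2, 14.2 and 15.3 CPM in tumor NK cells against 9.25, 14.3, 10.4 and 0 in splenic NK cells, which rested on 3, 3, 3 and 0 UMIs. In monocytes it was 19.2, 20.3, 14.8 and 13.7 in tumor against 9.83, 8.38, 15.2 and 22.0 in spleen. Neither cell type showed the high splenic Pdk1 of CD8+ T cells, and both had overlapping tissues on this scale. In monocytes Slc2a1 rose more than in CD8+ T cells (2.19 ± 0.27, adjusted p 5.8e-06, 4 of 4), as did Pfkfb3 (1.68 ± 0.31, adjusted p 3.8e-04, 4 of 4) and Pfkp (0.99 ± 0.20, adjusted p 9.6e-04, 4 of 4). Slc16a3 (-3.82 ± 0.48), Hk2 (-3.20 ± 0.52) and Ndrg1 (-2.62 ± 0.46) had negative fitted values, each lower in 4 of 4 conditions. In CD8+ T cells of this sort these genes passed the filter through tumor libraries alone, with 3, 5 and 12 splenic UMIs. Their values rest on these UMIs and are given without the test, although they are among the calls counted above. Tpi1 (-1.06 ± 0.19, adjusted p 2.7e-04) was lower in 4 of 4 conditions too. Hif1a (0.01 ± 0.18, adjusted p 1.0), Ldha (0.32 ± 0.13, adjusted p 0.068) and Ddit4 (0.31 ± 0.23, adjusted p 0.36) did not pass, and for Hif1a library size alone gave the other sign, -0.49, and called it. Bnip3 (-0.46 ± 0.45) passed the filter in CD8+ T cells through tumor libraries alone, on 18 splenic UMIs, and is given without the test. For Vegfa, with 0 UMIs in splenic monocytes and in splenic CD8+ T cells, the interaction had no stable value and is not given.

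Several calls of the monocyte interaction rested on single conditions. Ankrd37 (2.91 ± 0.85, 4 of 4 conditions higher) was not called without *Aire*-/- isotype (2.55) or *Aire*+/+ isotype (2.19). In monocytes Ankrd37 passed the filter through tumor libraries alone, so its value rests on 5 splenic UMIs and is given without the test. Mxi1 (-1.01 ± 0.31, adjusted p 0.022, 4 of 4 lower) was not called without *Aire*-/- isotype (-0.88), *Aire*-/- anti-PD1 (-1.02) or *Aire*+/+ isotype (-0.93). Ero1l (1.12 ± 0.39, adjusted p 0.043, 2 of 4 higher) was not called without *Aire*+/+ isotype (0.89) or *Aire*+/+ anti-PD1 (0.73). Without *Aire*-/- anti-PD1, Ldha (0.38) and Ddit4 (0.56) passed, and the median over the genes was -0.15. It was 0.00 without *Aire*+/+ isotype and 0.08 without *Aire*+/+ anti-PD1.

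In NK cells the tissue difference of Slc2a3, which did not pass there, lay below that of CD8+ T cells (-2.83 ± 0.30, adjusted p 1.6e-07, lower in 4 of 4 conditions). Its level was 21.6, 30.2, 27.9 and 31.5 CPM in tumor NK cells and 49.3, 14.3, 55.2 and 68.2 in splenic NK cells. The tissues of NK cells overlapped, with 3 of 4 conditions higher in spleen. Tpi1 (-1.88 ± 0.17, adjusted p 1.9e-08), Pfkp (-1.30 ± 0.16, adjusted p 2.1e-06) and Hif1a (-1.07 ± 0.22, adjusted p 0.001) were also below those of CD8+ T cells, each lower in 4 of 4 conditions, with Pfkp not passing in NK cells themselves. Bnip3 (-2.88 ± 0.54, lower in 4 of 4) passed the filter in both cell types through tumor libraries alone, on 18 splenic UMIs in CD8+ T cells and 19 in NK cells. Its value rests on these UMIs and is given without the test, although it is among the calls counted above. Ddit4 rose more in NK cells (1.10 ± 0.21, adjusted p 4.5e-04, higher in 4 of 4), as did Ldha (0.57 ± 0.12, adjusted p 0.0011, 3 of 4), although Ldha was not called under library size alone (0.10) or with cells thinned to 2000 UMIs (0.17). Slc2a1 (-0.99 ± 0.30, adjusted p 0.019, 4 of 4 lower) was not called without *Aire*-/- isotype (-0.82) or *Aire*+/+ isotype (-0.77). Egln1 (-1.34 ± 0.40, adjusted p 0.02, 4 of 4 lower) was not called without *Aire*-/- anti-PD1 (-1.28) or *Aire*+/+ isotype (-1.16). Hk1 (-0.64 ± 0.21, adjusted p 0.039, 4 of 4 lower) was not called without *Aire*-/- isotype (-0.57), *Aire*-/- anti-PD1 (-0.63) or *Aire*+/+ anti-PD1 (-0.54). Hk2 (-1.38 ± 1.09) rested on 5 splenic UMIs in CD8+ T cells and 3 in NK cells, passed the filter in both through tumor libraries alone, and is given without the test. The median over the genes was -0.28 without *Aire*+/+ anti-PD1. For Vegfa, with 0 UMIs in splenic CD8+ T cells, the interaction had no stable value and is not given.

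**Figure D2:**
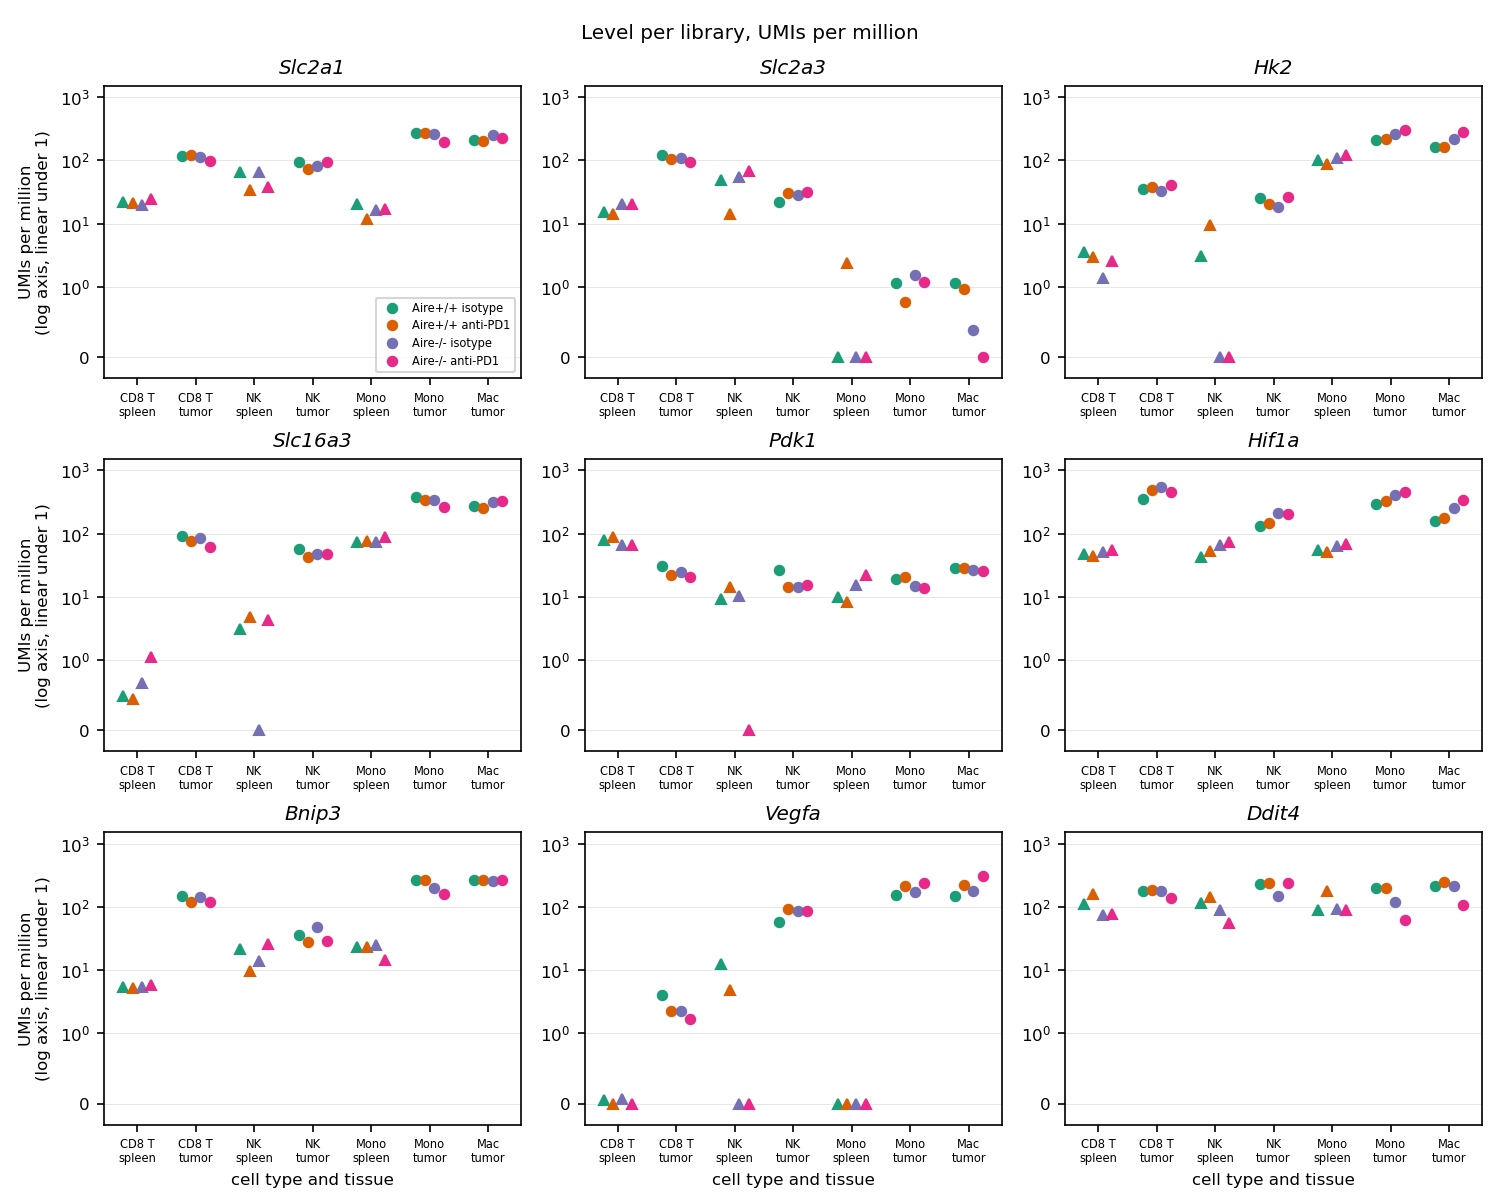
Levels of 9 genes in CPM (y axis, logarithmic and linear under 1) in gated cell types (x axis), with 1 point for each library, circles for tumor, triangles for spleen and colors for the 4 conditions. Circles lie above triangles in CD8+ T cells for every gene shown except Pdk1, where they lie below, and Ddit4, where they overlap.

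Tumors were dissociated with enzymes and spleens were dispersed mechanically, so tissue and preparation cannot be told apart. The RNA of 9 genes known to respond to dissociation (Fos, Fosb, Jun, Junb, Egr1, Atf3, Hspa1a, Hspa1b and Dnajb1, all with a row) was summed as a record of this. In CD8+ T cells of the CD8 sort the sum was 2829.7, 3278, 2882 and 3252 CPM in tumor and 364, 318, 396 and 372 in spleen, with Junb the most abundant in both. In CD8+ T cells of the CD45 sort it was 2643, 3079, 2655 and 3418 in tumor and 387, 405, 435 and 375 in spleen, again led by Junb. NK cells had 2243, 2575, 2391 and 3009.9 in tumor and 901, 712, 1032 and 767 in spleen, led by Junb, with Fosb at 0 in spleen and none of the other genes at 0. These sums were higher in every tumor library than in any splenic library of the same cell type. Monocytes had 12469, 11671, 9744 and 9245 in tumor, led by Fos, and 1223, 940.0, 1152 and 1334 in spleen, led by Junb. The part of this response in the tissue differences was not tested. Lists of markers of other cells were summed as well. In tumor CD8+ T cells, NK cells, macrophages and monocytes, tumor epithelium (6 genes) stood at 1.14 to 9.87 CPM, fibroblast genes (5) at 0 to 8.38 and neutrophil genes (5) at 0 to 111. Macrophage genes (5) stood at 6.72 to 55.1 CPM in tumor CD8+ T cells and NK cells, and B cell genes (3 of 5 with a row) at 9.55 to 27.5 in splenic CD8+ T cells, NK cells and monocytes. Erythroid RNA (5 genes, led by Hbb-bs) reached 270.0 CPM in the splenic CD8 library of *Aire*+/+ mice given isotype and 1.12 to 2.70 in the other 3, and the tissue calls of the genes named in the CD8 sort were all made without that condition as well.

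Macrophages and monocytes of the tumor were compared within the same 4 libraries. All 31 genes could be tested, Adm through its macrophages alone, and 4 were higher in macrophages, where 22.7% of the 11007 genes tested were higher, and 10 lower, where 23.3% were lower, so that their share of calls was not above that of all genes on the higher side. The median was -0.07 against 0.04 over all genes, and DESeq2 called 3 higher and 9 lower. TMM moved the median of all genes by -0.16, and library size alone called 3945 genes higher and 1703 lower, with 10 of the 31 higher and 5 lower. The counts changed when a library was left out: without *Aire*-/- isotype 1 gene was higher and 6 were lower, without *Aire*+/+ isotype 5 were lower, and without *Aire*+/+ anti-PD1 5 were lower, while without *Aire*-/- anti-PD1 3 were higher and 14 lower. The share of all genes called in these fits is not given here, so these counts do not show whether the genes described moved more than others. Hif1a stood at 158, 179, 251 and 342 CPM in macrophages, against the monocyte levels given above, and was lower, with a log2 fold change of -0.88 ± 0.09 (adjusted p 8.4e-06, lower in 4 of 4 libraries). Pfkp stood at 87.7, 91.1, 128 and 137 and was lower (-0.73 ± 0.08, adjusted p 1.7e-05, 4 of 4). Hk2 stood at 161, 162, 217 and 278 and was lower (-0.45 ± 0.07, adjusted p 2.9e-04, 4 of 4). In each of these 3 genes the macrophage value lay under the monocyte value of its own library, while the ranges over libraries overlapped and both *Aire*-/- libraries were above both *Aire*+/+ libraries.

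Macrophages were also lower than monocytes in Hk1 (35.9, 35.7, 47.4 and 52.1 CPM against 51.8, 46.9, 60.5 and 52.5, -0.51) and in Pfkfb3 (74.6, 86.0, 95.2 and 85.7 CPM, -0.47). They were higher in Pdk1 (29.0, 29.1, 27.0 and 26.1 CPM, 0.52). Slc2a1 stood at 208, 205, 248 and 229 CPM in macrophages and was lower (-0.34 ± 0.10, adjusted p 0.015, 3 of 4 libraries), a call lost without *Aire*+/+ isotype (-0.24) or *Aire*+/+ anti-PD1 (-0.25). Ddit4 stood at 214, 244, 210.0 and 106 and was higher by 0.30 ± 0.11 (adjusted p 0.036, 4 of 4), a call lost without *Aire*-/- isotype (0.20) or *Aire*-/- anti-PD1 (0.21), while the value was 0.45 without *Aire*+/+ isotype. In both genes the macrophage and monocyte ranges overlapped. Egln3 (36.4, 29.1, 19.9 and 36.6 CPM, -0.47) and Slc16a3 (272, 251, 311 and 323 CPM, -0.35) were lower in 3 of 4 libraries and were not called without *Aire*-/- isotype (-0.43 and -0.36), *Aire*+/+ isotype (-0.34 and -0.23) or *Aire*+/+ anti-PD1 (-0.41 and -0.27). Tpi1 was higher (895, 868, 866 and 745 CPM, 0.34), not called without *Aire*-/- isotype (0.33), and 0.18 without *Aire*-/- anti-PD1. Ldha (1419.9, 1269.9, 1294 and 1031 CPM, 0.12 ± 0.07), Bnip3 (269, 263, 259 and 268 CPM, 0.11 ± 0.11) and Vegfa (147, 218, 175 and 311 CPM, -0.07 ± 0.08) did not pass, except Vegfa without *Aire*-/- anti-PD1 (-0.17) and Ldha under library size alone (0.27). The median over the genes was -0.17 without *Aire*-/- anti-PD1, -0.04 without *Aire*-/- isotype, -0.01 without *Aire*+/+ anti-PD1 and 0.01 without *Aire*+/+ isotype.

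Among tumor CD8+ T cells of the CD8 sort, cycling cells (304, 204, 170 and 182) were compared within each library with cells that had no UMIs of the cycling genes after thinning (1838, 1619, 1376 and 1661). Cells in neither class were left out. All 31 genes could be tested, of which 12 were higher in cycling cells, where 24.4% of the 11275 genes tested were higher, and 6 lower, where 24.5% were lower. DESeq2 called 10 and 4, and the median was 0.07 against -0.03 over all genes (0.03 without *Aire*+/+ anti-PD1). Slc2a3 stood at 89.9, 72.4, 90.4 and 69.4 CPM in cycling cells and 131, 114, 111 and 95.1 in the others. Hif1a stood at 304, 359, 507 and 398 and 366, 517, 564 and 483. Ddit4 stood at 236, 237, 234 and 160.1 and 158, 175, 157 and 131. The first pair were lower and Ddit4 higher in the cycling cells of every library, while ranges over libraries overlapped for Hif1a and Ddit4. Slc2a3 fell by 0.54 on the log2 scale (adjusted p 1.4e-06, 4 of 4 libraries) and Hif1a fell by 0.36 (adjusted p 2.3e-05, 4 of 4), while Ddit4 rose by 0.43 ± 0.05 (adjusted p 3.0e-06, 4 of 4). Tpi1 stood at 905, 828, 802 and 698 and 736, 601, 604 and 496, Slc16a3 at 105, 102, 106 and 84.4 and 85.4, 73.5, 78.2 and 56.3, and Ldha at 2282, 2103, 2228 and 2042 and 2042, 1684, 1778 and 1636. All 3 were higher in the cycling cells of each library, with overlapping ranges, by 0.36 ± 0.04 (Tpi1, adjusted p 1.3e-06), 0.38 ± 0.06 (Slc16a3, adjusted p 4.1e-05) and 0.23 ± 0.03 (Ldha, adjusted p 3.4e-05).

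The smaller calls of this comparison depended on single libraries. Hk2 (39.3, 44.6, 41.7 and 43.0 CPM in cycling cells and 33.7, 35.9, 29.0 and 40.2 in the others) was higher by 0.23 ± 0.07 (adjusted p 0.016, 4 of 4 libraries), but not without *Aire*-/- isotype (0.16) or *Aire*+/+ anti-PD1 (0.22). Slc2a1 (107, 118, 113 and 91.6 and 119.8, 121, 112 and 98.0) was lower (-0.12 ± 0.05, adjusted p 0.047, 3 of 4), but not without *Aire*-/- anti-PD1 (-0.11), *Aire*+/+ isotype (-0.08) or *Aire*+/+ anti-PD1 (-0.14). The ranges of cycling and other cells overlapped for both genes. Pfkfb3 (22.6, 27.4, 18.2 and 16.5 against 25.4, 28.2, 27.4 and 20.8, -0.30) was not called without *Aire*-/- isotype (-0.21), Ndrg1 (42.1, 46.8, 43.4 and 38.8 against 66.1, 54.8, 53.1 and 35.5, -0.36) not without *Aire*+/+ isotype (-0.19), and Adm (2.15, with 10, 22, 3 and 1 UMIs in cycling cells and 11, 8, 8 and 1 in the others) not without *Aire*+/+ anti-PD1 (1.28). Pfkp (-0.03 ± 0.04), Bnip3 (0.07 ± 0.05) and Vegfa (0.38 ± 0.24) did not pass, though Bnip3 did without *Aire*+/+ isotype (0.14).

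Genotype and treatment were compared within each tumor cell type, to ask whether loss of Aire or blockade of PD-1 went with a different level of these genes. Each pair sets 1 library against 1 and was not tested, and no fit over the 4 conditions together was made. Each pair is given as a log2 ratio of CPM with its 95% counting interval, and genes past 1.5-fold are counted among those with at least 50 UMIs over the pair. A ratio whose interval leaves out 0 can still reflect the particular pool of mice. In CD8+ T cells of the CD8 sort, 3 of 30 genes passed 1.5-fold between genotypes under isotype, where 5.42% of all genes did, and 1 of 30 under anti-PD1, where 4.82% did. Between treatments 3 of 31 passed in *Aire*+/+ mice, where 4.11% of all genes did, and 0 of 30 in *Aire*-/- mice, where 3.52% did. Under isotype, Hif1a was higher in *Aire*-/- cells by 0.62 (0.58 to 0.65), and Ankrd37 and Vegfa were lower, at -0.81 (-0.96 to -0.67) and -0.87 (-1.39 to -0.38). Under anti-PD1, the same genotype ratio was -0.69 (-0.86 to -0.52) for Ankrd37 and -0.06 (-0.10 to -0.02) for Hif1a. Hif1a thus stood lowest in the *Aire*+/+ isotype library and within a narrow range in the other 3. Ankrd37 was past 1.5-fold lower in *Aire*-/- cells under both treatments, as were 0.748% of all genes. In *Aire*+/+ mice anti-PD1 went with lower Vegfa (-0.84, -1.31 to -0.38) and Egln3 (-0.62, -0.82 to -0.42), and with Adm at 0.68 (-0.09 to 1.47), an interval that includes 0. The CD8+ T cells of the CD45 sort, probably of the same pools, gave 0.63 (0.47 to 0.79) for Hif1a and -0.64 (-1.13 to -0.14) for Ankrd37 between genotypes under isotype. Vegfa, under 50 UMIs over that pair, did not follow the CD8 sort there, with 2 UMIs in *Aire*+/+ and 18 in *Aire*-/- cells. In this sort 2 of 29 genes passed 1.5-fold between genotypes under isotype and 3 of 29 under anti-PD1, where 9.10% and 9.35% of all genes did. Between treatments 5 of 28 passed in *Aire*+/+ mice and 2 of 29 in *Aire*-/- mice, all lower under anti-PD1, where 3% and 2.36% of all genes were lower, with medians of -0.41 and -0.24 over the genes described and of 0.04 over all genes in both. Ankrd37 was among them in both genotypes (-1.11 (-1.68 to -0.55) and -0.96 (-1.40 to -0.52)), while in the CD8 sort it stayed under 1.5-fold (-0.51 (-0.63 to -0.38) and -0.39 (-0.57 to -0.20)).

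In tumor NK cells 4 of 25 genes passed 1.5-fold between genotypes under isotype, where 12.8% of all genes did, and 0 of 26 under anti-PD1, where 9.04% did. Hif1a was higher in *Aire*-/- cells under isotype by 0.67 (0.41 to 0.92), and by 0.48 (0.27 to 0.70) under anti-PD1. Under isotype Ddit4 (-0.60, -0.84 to -0.37), Ero1l (-0.63, -1.05 to -0.21) and Pdk1 (-0.90, -1.68 to -0.14) were lower in *Aire*-/- cells, but without cycling cells the Ddit4 ratio was 0.15. Treatment put 3 of 25 genes past 1.5-fold in *Aire*+/+ mice, where 9.32% of all genes passed, and 2 of 26 in *Aire*-/- mice, where 7.59% did. They were Vegfa (0.68, 0.29 to 1.08), Pdk1 (-0.90, -1.69 to -0.13) and Hk1 (-0.59, -1.0 to -0.18) in *Aire*+/+ mice, and Bnip3 (-0.74, -1.18 to -0.31) and Ddit4 (0.66, 0.46 to 0.87) in *Aire*-/- mice. Without cycling cells, 10 of 23 genes passed 1.5-fold between genotypes under anti-PD1, all higher in *Aire*-/- cells, where 7.68% of all genes were higher. Between treatments in *Aire*+/+ mice 16 of 20 then passed, 15 of them lower under anti-PD1, where 4.98% of all genes were lower, so the numbers in NK cells depend on this choice. The intervals in NK cells were wide, because a gene such as Pdk1 rested on 25 to 50 UMIs in the libraries compared.

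In tumor macrophages 2 of 29 genes passed 1.5-fold between genotypes under isotype, where 10.7% of all genes did, and 5 of 29 under anti-PD1, where 21.2% did. Of these 5, 4 were higher in *Aire*-/- macrophages, where 7.11% of all genes were higher, and 1 was lower, where 14.1% were lower. Hif1a was higher in *Aire*-/- macrophages under isotype (0.67, 0.59 to 0.76) and under anti-PD1 (0.94, 0.82 to 1.06). It was past 1.5-fold higher in both pairs, as were 2.32% of all genes. In these macrophages the dissociation sum was 12547, 11649, 10128 and 9369.9 CPM and the 5 macrophage genes summed to 14409, 16259, 12278 and 9227, both lower in both *Aire*-/- libraries, and their part in the ratios was not tested. Hif1a levels in macrophages followed a steady order, lowest in *Aire*+/+ isotype and highest in *Aire*-/- anti-PD1, and the same order held in monocytes. Under anti-PD1, Hk2 (0.78, 0.64 to 0.91), Pfkp (0.59, 0.40 to 0.77) and Egln1 (0.62, 0.23 to 0.99) were also higher in *Aire*-/- macrophages and Ddit4 was lower (-1.21, -1.40 to -1.02). Egln3 was lower in *Aire*-/- macrophages under isotype (-0.87, -1.13 to -0.61). Between treatments 0 of 30 genes passed in *Aire*+/+ mice, where 4.07% of all genes did, and 4 of 29 in *Aire*-/- mice, where 12.3% did. In *Aire*-/- mice anti-PD1 went with higher Vegfa (0.83, 0.70 to 0.96), Egln3 (0.88, 0.48 to 1.26) and Egln1 (0.71, 0.31 to 1.10) and lower Ddit4 (-0.99, -1.18 to -0.80). In *Aire*+/+ mice the Vegfa ratio was 0.57 (0.49 to 0.65), just under 1.5-fold, so that Vegfa stood higher under anti-PD1 in both genotypes.

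In tumor monocytes 3 of 29 genes passed 1.5-fold between genotypes under isotype, where 11.6% of all genes did, all 3 lower in *Aire*-/- cells. Under anti-PD1 8 of 29 passed, where 15.2% of all genes did, and all 8 were lower in *Aire*-/- monocytes, where 9.68% of all genes were lower, with a median log2 ratio of -0.47 over the genes described against -0.06 over all genes. In these monocytes the 5 macrophage genes, led by Apoe, summed to 1635, 2209.5, 1363 and 1135 CPM. They and the dissociation sum given above were lower in both *Aire*-/- libraries than in both *Aire*+/+ libraries, and their part in the lower values of the 8 genes was not tested. The 8 were Ddit4 (-1.68, -1.88 to -1.49), Ero1l (-0.94, -1.15 to -0.74), Tpi1 (-0.91, -0.99 to -0.82), Ankrd37 (-0.76, -1.09 to -0.44), Bnip3 (-0.74, -0.87 to -0.60), Egln3 (-0.67, -1.01 to -0.33), Eno1 (-0.60, -0.65 to -0.54) and Ldha (-0.60, -0.66 to -0.54). Under isotype the 3 were Egln3 (-0.99, -1.26 to -0.73), Ddit4 (-0.72, -0.85 to -0.60) and Ero1l (-0.63, -0.78 to -0.48). All of them were past 1.5-fold lower in both pairs, as were 2.84% of all genes. Hif1a again went the other way, with a ratio of 0.46 (0.38 to 0.54) for the isotype pair and of 0.45 (0.36 to 0.54) for the anti-PD1 pair. Between treatments 0 of 29 genes passed in *Aire*+/+ mice, where 5.09% of all genes did, and 2 of 29 in *Aire*-/- mice, where 7.09% did, namely Ddit4 (-0.94, -1.15 to -0.73) and Tpi1 (-0.59, -0.68 to -0.51). Vegfa was higher under anti-PD1 by 0.46 (0.35 to 0.57) in *Aire*+/+ and by 0.50 (0.38 to 0.63) in *Aire*-/- monocytes.

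Ddit4 was also followed in the spleen. In splenic CD8+ T cells of the CD8 sort, its *Aire*+/+ libraries both stood above its *Aire*-/- libraries, with the *Aire*+/+ anti-PD1 library highest, and the *Aire*+/+ anti-PD1 library was also the highest of 4 for Ddit4 in splenic NK cells and monocytes. Under anti-PD1 the genotype ratio was -1.04 (-1.14 to -0.94) in splenic CD8+ T cells. In tumors, Ddit4 was lowest in *Aire*-/- anti-PD1 among CD8+ T cells, macrophages and monocytes, and in *Aire*-/- isotype among NK cells. Over the genes with enough UMIs, the median log2 genotype ratio in splenic CD8+ T cells was -0.06 under isotype (28 genes, 0.01 over all genes) and 0.19 under anti-PD1 (28 genes, 0.07 over all genes).

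**Figure D3:**
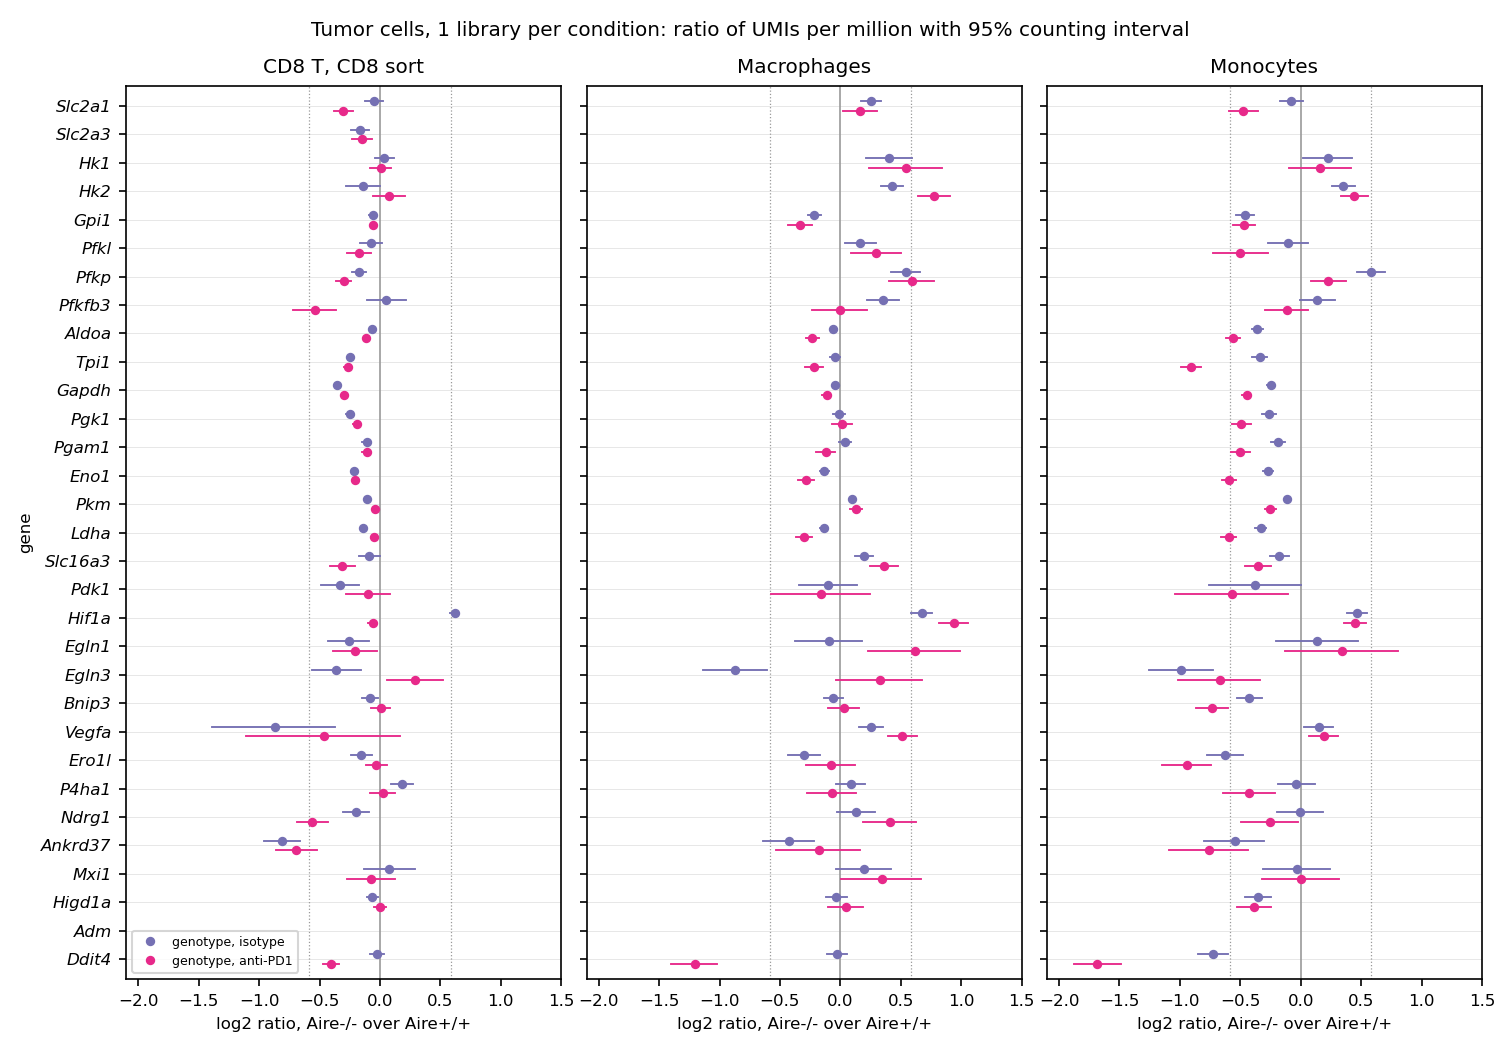
Log2 ratio of *Aire*-/- over *Aire*+/+ (x axis) for each gene with at least 50 UMIs over the pair (y axis), under isotype (purple) and anti-PD1 (pink), in tumor CD8+ T cells, macrophages and monocytes, with lines for the 95% counting interval and dotted lines at 1.5-fold. Hif1a lies to the right in macrophages and monocytes under both treatments, and Ddit4 lies farthest to the left in monocytes at -1.68.

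Genes of the same pathways outside the 31 were counted from a pair of lists, 23 further genes of glycolysis and the pentose phosphate route and 28 further hypoxia genes. In CD8+ T cells of the CD8 sort 12 of the 22 tested glycolysis genes were higher in tumor and 7 lower, and 18 of the 27 tested hypoxia genes were higher and 6 lower, where 37.3% of all genes were higher and 38.6% lower. By size these included Aldoc (5.32, adjusted p 1.2e-07, higher in 4 of 4 conditions), Slc2a6 (ratio of UMIs 13.5 (6.37 to 34.1)) and Ldhb (-3.14, adjusted p 1.5e-06, lower in 4 of 4), which encodes the other lactate dehydrogenase subunit. Of the hypoxia list, Bhlhe40 (6.81, adjusted p 3.3e-07) and Hilpda (4.64, adjusted p 3.5e-08) were higher in 4 of 4, and Ak4 had 161 UMIs in tumor against 2 in spleen, a ratio of 53.9 (95% counting interval 14.7 to 448). NK cells had 11 higher and 2 lower of 18 glycolysis genes and 8 higher and 5 lower of 20 hypoxia genes, where 20.3% of all genes were higher and 14.7% lower, with Hilpda (ratio of UMIs 21.1 (12.1 to 41.0)) and the lactate carrier Slc16a1 (91 against 0 UMIs, at least 3.87-fold higher) among them. Monocytes had 4 higher and 12 lower of 22 glycolysis genes, unlike the 31, and 15 higher and 3 lower of 24 hypoxia genes, where 26.1% of all genes were higher and 22.6% lower. Among these, Eno3 was lower (-3.05, adjusted p 9.2e-13, 4 of 4), and Ier3 (8.20, adjusted p 3.5e-20, 4 of 4) and Hilpda (ratio of UMIs 97.3 (52.9 to 203)) were higher. Of the genes tested from these lists, 4 in CD8+ T cells, 13 in NK cells and 9 in monocytes passed the filter through tumor libraries alone, which favored a higher value for them. In NK cells these included Slc2a6, Hk3, Aldoc, Eno3, Slc16a1, Pdk3, Hilpda and Ier3, all called higher, and Gpd1l, called lower. The NK counts are therefore not read against the shares of all genes.

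The factor encoded by Hif1a binds the letters ACGTG, a form of the core of the hypoxia response element, and its reverse complement CACGT, and the palindrome CACGTG holds both. The other form of the core, GCGTG, was not looked for. These letters were looked for on both strands in the 250 bases before the start of each gene, in RefSeq promoter sequences of GRCm38.p6, where 28 of the 31 genes had an entry and Slc2a3, Ero1l and Ndrg1 did not. They were present for 18 of the 28 (64.3%, 95% exact interval 44.1% to 81.4%), against 4998 of all 27025 genes in the table (18.5%). By kind this was 9 of 17 glycolysis genes (52.9%) and 9 of 11 hypoxia genes (81.8%), and in the further lists 7 of 23 glycolysis genes (30.4%) and 12 of 21 hypoxia genes (57.1%). Known targets of the factor were listed as such, so a high share says nothing beyond that choice, and a match is a string of letters and not a bound site. The sequences below show promoters that hold the letters, from genes higher in tumor CD8+ T cells and chosen after the values were seen, with matches in capitals: Ldha at chr7:46845554-46845803 (plus strand), Bnip3 at chr7:138909507-138909756 (minus strand), Slc16a3 at chr11:120948817-120949066 (plus strand), Hk2 at chr6:82774455-82774704 (minus strand) and Ankrd37 at chr8:45999851-46000100 (minus strand).
Ldha: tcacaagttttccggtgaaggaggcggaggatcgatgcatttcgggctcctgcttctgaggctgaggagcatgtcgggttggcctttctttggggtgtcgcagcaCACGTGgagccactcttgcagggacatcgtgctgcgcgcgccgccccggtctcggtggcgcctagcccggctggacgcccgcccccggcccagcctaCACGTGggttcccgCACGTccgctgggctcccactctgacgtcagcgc
Bnip3: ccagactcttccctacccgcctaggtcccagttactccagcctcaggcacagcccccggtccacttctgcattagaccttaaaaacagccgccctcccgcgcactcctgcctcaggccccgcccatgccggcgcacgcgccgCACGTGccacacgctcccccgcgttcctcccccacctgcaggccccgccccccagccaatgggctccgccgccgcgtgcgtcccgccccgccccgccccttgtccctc
Slc16a3: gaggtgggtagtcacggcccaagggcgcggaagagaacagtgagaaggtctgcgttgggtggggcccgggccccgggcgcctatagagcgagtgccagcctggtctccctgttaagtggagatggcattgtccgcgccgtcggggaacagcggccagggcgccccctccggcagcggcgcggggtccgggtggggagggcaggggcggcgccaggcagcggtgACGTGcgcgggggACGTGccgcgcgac
Hk2: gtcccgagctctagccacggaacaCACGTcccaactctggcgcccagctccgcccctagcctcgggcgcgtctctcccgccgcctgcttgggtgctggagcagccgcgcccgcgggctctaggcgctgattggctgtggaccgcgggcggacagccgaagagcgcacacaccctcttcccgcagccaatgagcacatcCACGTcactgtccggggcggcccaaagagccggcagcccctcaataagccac
Ankrd37: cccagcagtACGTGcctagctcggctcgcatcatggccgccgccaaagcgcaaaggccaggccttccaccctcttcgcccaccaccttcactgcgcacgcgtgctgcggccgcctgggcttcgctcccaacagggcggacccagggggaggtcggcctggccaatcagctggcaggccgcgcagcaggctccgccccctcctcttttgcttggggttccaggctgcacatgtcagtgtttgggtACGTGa

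A pair of genes without the letters ACGTG or CACGT in this window is shown for contrast, Tpi1 at chr6:124814159-124814408 (minus strand), which rose in tumor CD8+ T cells, and Pdk1 at chr2:71872974-71873223 (plus strand), which fell there. The Pdk1 window does hold GCGTG, so it is not without a form of the core.
Tpi1: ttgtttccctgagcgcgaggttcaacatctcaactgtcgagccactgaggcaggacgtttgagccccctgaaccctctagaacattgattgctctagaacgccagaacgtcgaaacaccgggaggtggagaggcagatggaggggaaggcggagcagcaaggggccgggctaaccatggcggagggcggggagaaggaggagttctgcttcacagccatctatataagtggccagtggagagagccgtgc
Pdk1: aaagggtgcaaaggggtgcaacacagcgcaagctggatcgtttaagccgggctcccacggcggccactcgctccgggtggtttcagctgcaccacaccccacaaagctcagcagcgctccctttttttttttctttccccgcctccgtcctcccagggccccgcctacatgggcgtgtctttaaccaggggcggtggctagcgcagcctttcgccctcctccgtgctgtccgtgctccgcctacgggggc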

How the data were processed

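Single-cell RNA was measured in 16 libraries: CD45+ and CD8+ cells of tumors and spleens in 4 conditions. The values used are counts of UMIs per gene and cell barcode, which the authors deposited without normalization after alignment, cell calling and UMI counting with Cell Ranger on mouse genome GRCm38. Cells with at least 200 genes and at most 20% mitochondrial UMIs were kept, the limits of the study.

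Cells were gated on UMIs. CD8+ T cells had Cd3d, Cd3e or Cd3g, Cd8a or Cd8b1, and no Cd4. NK cells had at least 2 UMIs of Ncr1 and Klrb1c and none of Cd3d, Cd3e or Cd8b1. Macrophages had at least 5 of C1qa, C1qb and C1qc together with Csf1r, Adgre1 or Msr1. Monocytes had at least 3 of Lyz2, with Csf1r and with Ly6c2, Ccr2, Ace, Cx3cr1 or Treml4, at most 2 of C1qa, C1qb and C1qc, fewer than 20 of S100a8 and S100a9, and no Flt3 or Xcr1. Markers of other types were limited, and cells in more than 1 gate were left out. No doublet caller was run, so doublets within a type stayed in. Cycling and other CD8+ T cells were separated on UMIs thinned to 3000 per cell (Mki67, Top2a, Birc5 and Cdk1 together at least 2 against 0). Lists of markers of tumor epithelium, fibroblasts, macrophages, neutrophils, B cells and erythroid cells and of dissociation stress were summed in each gate.

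UMIs were summed per library and gate, where a sum held at least 20 cells and 50000 UMIs, and genes with a mean of at least 5 UMIs per sum were tested (Python 3.11.15, numpy 2.4.6, scipy 1.17.1, pandas 2.3.3, matplotlib 3.10.9). Comparisons used edgeR 4.0.16 in R 4.3.3 (TMM factors, quasi-likelihood F test, Benjamini-Hochberg over all genes tested, adjusted p under 0.05), with the condition as block for tissues and the library as block within tumors and for interactions. SEs are the log2 fold change over the square root of F. The number of conditions higher or lower is on library size, with 0.5 UMI added to each sum. The procedure was tested on simulated data. Genotype and treatment were compared in pairs of 1 library each, without a test, and no joint fit over the 4 conditions was made. Exact Poisson intervals were used for them, with genes of at least 50 UMIs over the pair, so that rarer genes, mostly in NK cells, have no ratio.

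Alternatives were library size alone, DESeq2 1.42.0 with its own size factors, no filter beyond 1 UMI, each condition left out in turn, no condition block, cycling cells left out, cells thinned to 2000 UMIs, the 5% of cells with the most UMIs left out, doubled lower limits of the gates, all cells of the CD8 sort, mitochondrial and ribosomal protein genes out of the denominator, a mean over cells, and all 300 bases of the promoter table in place of 250.

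The genes and lists were chosen with earlier results of these data known. Named with values are the genes that passed with the largest log2 fold change, up to 10 in each comparison, and Slc2a1, Hk2, Pfkp, Ldha, Hif1a, Bnip3, Vegfa and Ddit4 in every comparison. Without a test, named genes are those past 1.5-fold, up to 8 by size, and the same 8. Other genes of the pathways are counted, with up to 5 named. Left out were the tissue comparison of macrophages, for want of cells, and tests across cells. Some planned results are not reported here.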

Additional observations from a re-analysis of the deposited data

Results flagged for a closer look

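The sum of the hypoxia genes in splenic monocytes was 503 CPM in the *Aire*+/+ anti-PD1 library and 424, 428 and 423 in the other 3, a library far from the rest of its group. Ddit4 alone was 181 CPM there and 88.5, 91.2 and 88.0 in the other 3, a gap wider than that of the sum, so the flag rests on this gene. Chance singles out about 1 in 20 groups of 4 in this way.

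The tissue difference of monocytes differed from that of CD8+ T cells, by the test of the difference itself, for 17 genes: Slc2a1 (2.19), Hk2 (-3.20), Gpi1 (-0.56), Pfkp (0.99), Pfkfb3 (1.68), Aldoa (-0.99), Tpi1 (-1.06), Gapdh (-0.92), Pgk1 (-0.60), Eno1 (-0.91), Pkm (-0.36), Slc16a3 (-3.82), Pdk1 (2.59), Ero1l (1.12), Ndrg1 (-2.62), Ankrd37 (2.91) and Mxi1 (-1.01). Values are log2 differences, positive where the rise in tumor was larger in monocytes. Hk2, Slc16a3 and Ndrg1 in CD8+ T cells and Ankrd37 in monocytes passed the filter through tumor libraries alone, so their values rest on few splenic UMIs. Their calls are therefore not taken as test results.

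The tissue difference of NK cells differed from that of CD8+ T cells by the same test for 12 genes: Slc2a1 (-0.99), Slc2a3 (-2.83), Hk1 (-0.64), Pfkp (-1.30), Tpi1 (-1.88), Pkm (-0.36), Ldha (0.57), Pdk1 (3.13), Hif1a (-1.07), Egln1 (-1.34), Bnip3 (-2.88) and Ddit4 (1.10). Bnip3 in both cell types and Pdk1 in NK cells passed the filter through tumor libraries alone, so their values rest on few splenic UMIs. Their calls are likewise not taken as test results. TMM scaling moved the median of all genes by 0.50 for monocytes and by 0.47 for NK cells.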

How the results depend on the processing

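Apart from the counts given next, the results compared were mostly calls for named genes. Of these results, 1436 kept direction and side of the threshold (or, without a test, moved within their counting interval). A further 78 lost the call, 7 gained it, 35 moved and 4 changed sign. Of the counts over the 31 genes, 238 stayed within 1.5 times their value and 37 moved beyond. The cause of each change was not tested. The share of all genes under an alternative is given only where stated, so a changed count alone does not show that these genes moved more than others.

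Leaving out each condition in turn, the median log2 fold change and the calls were 2.20 to 2.40, 30 to 30 higher and 1 to 1 lower (CD8+ T cells, CD8 sort), 2.0 to 2.14, 28 to 29 higher and 1 to 1 lower (CD8+ T cells, CD45 sort), 1.63 to 1.80, 21 to 23 higher and 0 to 0 lower (NK cells) and 1.75 to 1.88, 25 to 28 higher and 0 to 0 lower (monocytes). For the interactions they were -0.15 to 0.08, 4 to 8 higher and 8 to 10 lower (monocytes) and -0.53 to -0.28, 3 to 4 higher and 6 to 7 lower (NK cells). Within tumors they were -0.17 to 0.01, 1 to 5 higher and 5 to 14 lower (macrophages against monocytes) and 0.03 to 0.10, 9 to 14 higher and 4 to 5 lower (cycling cells).

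Under library size alone, 1 gene instead of 0 was lower in tumor NK cells, 17 instead of 9 were lower in the NK interaction, macrophages against monocytes had 10 higher and 5 lower instead of 4 and 10, and the monocyte interaction of Hif1a was -0.49 instead of 0.01. With cells thinned to 2000 UMIs, 3 instead of 6 genes were higher in the monocyte interaction, 4 instead of 9 lower in the NK interaction and 2 instead of 6 lower in cycling cells. Ddit4 in CD8+ T cells of the CD45 sort was then -0.13 instead of 0.42, and Slc2a1 in cycling cells 0.00228 instead of -0.12.

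With the same thinning the number of genes past 1.5-fold moved in 7 pairs: CD8+ T cells between genotypes under anti-PD1 from 1 to 3, CD8+ T cells between treatments in *Aire*-/- mice from 0 to 3, NK cells between genotypes under isotype from 4 to 1 and between treatments in *Aire*-/- mice from 2 to 1, macrophages between genotypes under isotype from 2 to 4 and between treatments in *Aire*+/+ mice from 0 to 1, and monocytes between treatments in *Aire*-/- mice from 2 to 5. Without cycling cells the numbers in CD8+ T cells were 1 instead of 3 (genotype, isotype), 2 instead of 1 (genotype, anti-PD1) and 1 instead of 0 (treatment, *Aire*-/-). In NK cells they were 10 instead of 0 (genotype, anti-PD1, where 12.4% of all genes then passed) and 16 instead of 3 (treatment, *Aire*+/+, where 12.0% did), with Ddit4 between genotypes under isotype at 0.15 instead of -0.60, and in monocytes 5 instead of 3 (genotype, isotype). Without the 5% of cells with the most UMIs they were 2 instead of 1 (genotype, anti-PD1) and 1 instead of 0 (treatment, *Aire*-/-) in CD8+ T cells, and 1 instead of 0 (genotype, anti-PD1) and 1 instead of 2 (treatment, *Aire*-/-) in NK cells. With a mean over cells they were 2 and 1 for the same pairs of CD8+ T cells, 5 instead of 3 (treatment, *Aire*+/+) and 1 instead of 2 (treatment, *Aire*-/-) in NK cells and 4 instead of 2 (treatment, *Aire*-/-) in monocytes. Without mitochondrial and ribosomal protein genes in the denominator they were 1 instead of 0 in CD8+ T cells and 1 instead of 2 in monocytes (treatment, *Aire*-/-), and 3 instead of 5 in macrophages (genotype, anti-PD1), where doubled limits of the gates also gave 3.

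With all 300 promoter bases 75.0% of the genes and 21.8% of all genes held the motif. Depth limits splenic NK cells most (47 to 81 cells), where a gene with few UMIs passed the filter only through tumor libraries.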
